A study of Mus musculus with 8 samples.

Results

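The genes described are 10 members of the insulin-like growth factor (IGF) system, namely the ligands Igf1 and Igf2, the receptors Igf1r, Insr and Igf2r, and the binding proteins Igfbp2, Igfbp3, Igfbp4, Igfbp5 and Igfbp6. They were taken from a fixed list of names, and all 10 had a probe set that names only 1 gene, out of 19938 genes measured in that way. Insr had 2 such probe sets, and its probe set was chosen by the higher mean over the 8 arrays. That mean is given below as a description, and no other measured value selected among probe sets. No filter on low values was applied.

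Layers II-IV of the mouse neocortex were cut out by laser at postnatal day 5, and the RNA of each pup was measured on 1 Affymetrix Mouse Gene 1.0 ST array. The 4 Bcl6 mutant pups carried floxed Bcl6 on both alleles together with 1 Nex Cre allele, and the 4 Bcl6 control pups carried the same floxed alleles and a wild-type Nex locus. Nex, also called Neurod6, drives Cre in excitatory cortical neurons that no longer divide, and not in the glia, interneurons and vessels that the captured tissue also holds. Mutants differ from controls both in Cre at Nex and in the floxed gene, and no pups with Cre alone are among the 8. Expression is given on the log2 scale as deposited, and fewer cells of a type and less RNA per cell cannot be told apart in such tissue.

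Insulin-like growth factors are secreted peptides that promote growth and survival of cells. Both ligands signal through the receptor tyrosine kinase IGF1R and, to differing degrees, through the insulin receptor, which relay to PI3K, Akt, mTOR and the FoxO factors. IGF2R carries mannose-6-phosphate-tagged enzymes and removes IGF2 without signalling as a kinase, and the binding proteins hold IGFs in the fluid or matrix around cells and either limit or prolong their action. In the early postnatal mouse cortex microglial Igf1 supports neurons of layer V, and Igf2 in brain is made chiefly by meninges, choroid plexus and vessels.

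The 8 arrays had medians between 4.94 and 5.01. The labels were examined first at the engineered loci. Bcl6 averaged 6.78 ± 0.14 in mutants and 6.40 ± 0.18 in controls (SD, n = 4 each). It read 6.61 to 6.96 in mutants and 6.23 to 6.58 in controls. Its reading was thus not reduced but higher in every array with the mutant label. Whether the Bcl6 probes cover the floxed exons is not known here. Neurod6, whose locus holds Cre on 1 allele of the mutants, read 8.69 to 9.07 in mutants and 9.15 to 9.41 in controls, lower in every mutant (adjusted p = 0.535 in limma). The Bcl6 reading does not check the labels, and directions below rest on them. Xist read 9.78 and 9.76 in mutant replicates 1 and 4 and at most 3.41 in the other 6 arrays. The Y-linked Eif2s3y read 2.80 and 2.29 in those 2 mutants and at least 7.39 in the other 6 arrays. Kdm5d and Uty split the arrays in the same way. These readings mark 2 mutants as female and the other 2, with all 4 controls, as male. Sex is thus partly confounded with genotype, and values without the 2 mutants with high Xist are given where they matter. The 9 measured markers of excitatory neurons of layers II-IV averaged 9.26 to 9.44 in mutant arrays and 9.19 to 9.56 in control arrays. The lowest of these means was that of control replicate 4. Of the 9 differences 5 were positive and 4 negative, from -0.39 for Neurod6 to 0.18 for Rasgrf2. Mef2c read 12.30 in mutants and 12.36 in controls. The 7 markers of choroid plexus averaged 3.87 to 3.98 in the mutant arrays and 3.85 to 3.96 in the control arrays. These means lie near the lower quartile of all genes, 3.96, and whether such readings exceed background is unknown.

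None of the 10 genes passed the threshold in either direction (limma, Benjamini-Hochberg adjusted p under 0.05 over all genes). Of all genes 13 passed, or 0.0652% of those tested, with 0.0502% higher and 0.015% lower in mutants. At an unadjusted p under 0.05, 1 of the 10 was higher in mutants and 0 were lower, against 1.64% of all genes higher and 3.28% lower. With the replicate block, with the Y-linked covariate or without the 2 mutants with high Xist, 1 was lower at that p, Igfbp4. The median difference, mutant minus control, was 0.025 over the 10 genes and -0.0096 over all genes. The gene at that p was Igfbp5, whose mutant and control values did not overlap. Groups that did not overlap were found in 2.75% of all genes, with mutants above controls in 0.963% and below them in 1.79%. The other 9 genes had unadjusted p-values of at least 0.113 in limma and at least 0.286 in the exact permutation test over arrays.

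**Figure D1:**
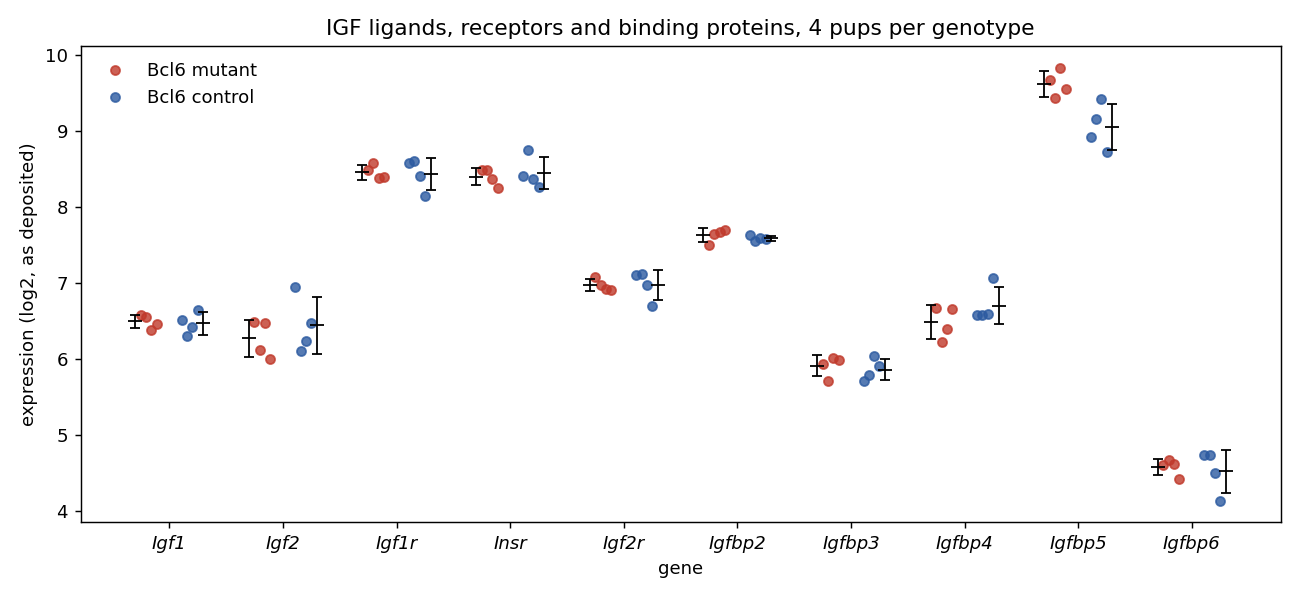
Deposited expression (y axis, log2) of the 10 genes (x axis), with a point per pup, Bcl6 mutant on the left and Bcl6 control on the right of each gene, and black bars for the group mean and SD (n = 4 each). Igfbp5 is the gene whose groups do not overlap, with its lowest mutant at 9.45 and its highest control at 9.43.

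Igfbp5 encodes a binding protein that is held in the extracellular matrix and is cut by pappalysin proteases. It read 9.68, 9.45, 9.84 and 9.55 in mutant replicates 1 to 4, against 8.92, 9.16, 9.43 and 8.73 in control replicates 1 to 4. All mutants were above all controls, but the gap between the lowest mutant and the highest control was only 0.021, while the values spanned 0.395 in mutants and 0.696 in controls. The group means were 9.63 ± 0.17 in mutants and 9.06 ± 0.30 in controls (SD, n = 4 each), a difference of 0.57 ± 0.13 (SE) with a 95% interval from 0.28 to 0.86. As a ratio that is 1.48-fold more in mutants, with an interval from 1.21 to 1.81. By p it stood 40th among the 19938 genes, with an unadjusted p of 0.00099 and an adjusted p of 0.491 in limma. The exact permutation test over arrays gave p = 0.0286 (two-sided, n = 4 each), the smallest that 4 against 4 arrays allow. The gene list was drawn up with earlier results of these data known, so neither p is independent support.

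Across the settings tried the Igfbp5 difference stayed between 0.46 and 0.69. Without control replicate 4, which had the lowest Igfbp5 value, it was 0.46, and without control replicate 3, which had the highest value among controls, it was 0.69. Over all 21 alternatives the adjusted p in limma lay between 0.116 and 0.998. The 2 mutants with high Xist read 9.68 and 9.55, between the 9.45 and 9.84 of the other 2 mutants. Without both of them the difference was 0.58 (95% interval 0.19 to 0.98; adjusted p = 0.998 in limma).

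**Figure D2:**
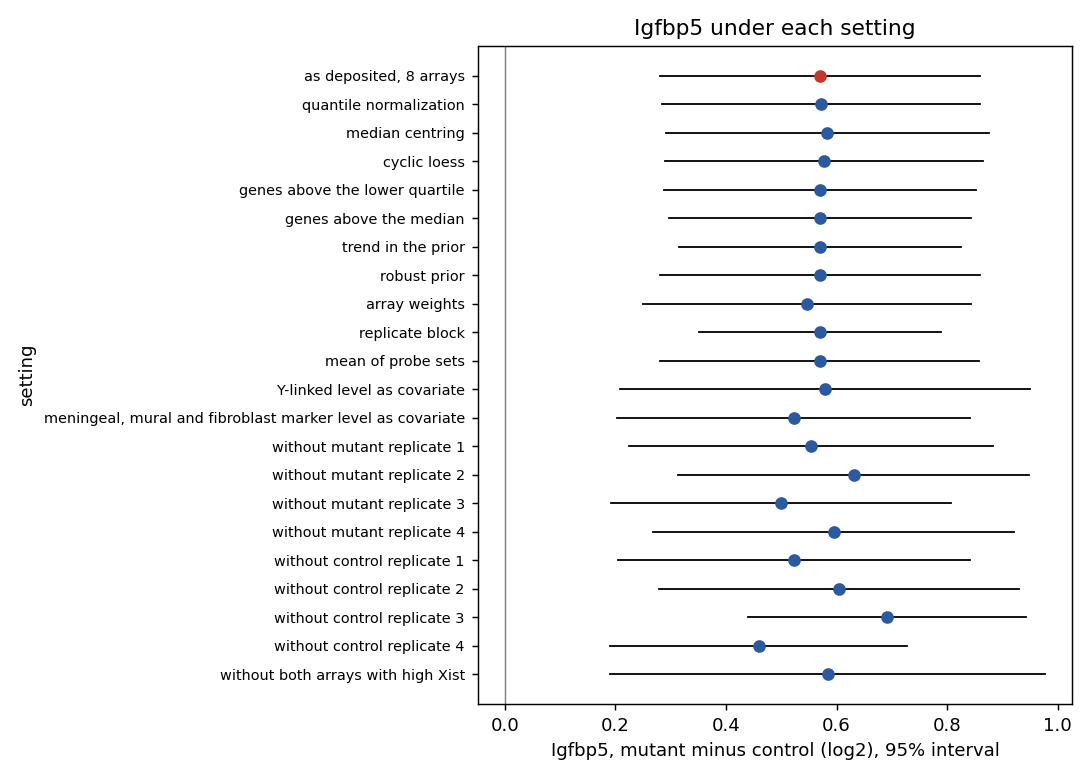
Igfbp5 in mutants minus controls (x axis, log2) under each setting (y axis), each point the estimate and each line its 95% interval; the red point is the fit of all 8 arrays as deposited. Estimates run from 0.46 to 0.69 and no interval reaches 0, although none of the adjusted p-values over all genes passed.

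Igfbp5 and Igfbp2 are neighbours on chromosome 1 (gene order taken from GRCm38.p6), transcribed towards each other. Igfbp2 encodes a soluble binding protein that is abundant in the developing brain. It read 7.51, 7.65, 7.67 and 7.71 in mutant replicates 1 to 4, against 7.64, 7.56, 7.60 and 7.59 in control replicates 1 to 4. The groups overlapped, and Igfbp2 varied least of the 10 genes between pups of a genotype (residual SD 0.066, against 0.245 for Igfbp5 and a median of 0.113 over all genes). Its difference was 0.04 ± 0.07 (SE, 95% interval -0.10 to 0.18), so that the interval's upper bound lies below the lower bound of the Igfbp5 interval, 0.28. The difference between the 2 was not tested.

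The windows of 250 bases before the start of both neighbours are shown because Igfbp5 is the gene of smallest p among the 10 and Igfbp2 is its neighbour. Both are read 5′ to 3′ on the gene's own strand from RefSeq (GRCm38.p6), with CG dinucleotides in capitals.
Igfbp5, chr1:72874866-72875115, minus strand: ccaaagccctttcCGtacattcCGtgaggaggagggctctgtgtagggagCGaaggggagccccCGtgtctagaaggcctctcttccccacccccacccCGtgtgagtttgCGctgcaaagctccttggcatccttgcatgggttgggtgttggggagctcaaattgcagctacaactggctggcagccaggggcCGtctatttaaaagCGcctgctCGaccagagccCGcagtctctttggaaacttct
Igfbp2, chr1:72824230-72824479, plus strand: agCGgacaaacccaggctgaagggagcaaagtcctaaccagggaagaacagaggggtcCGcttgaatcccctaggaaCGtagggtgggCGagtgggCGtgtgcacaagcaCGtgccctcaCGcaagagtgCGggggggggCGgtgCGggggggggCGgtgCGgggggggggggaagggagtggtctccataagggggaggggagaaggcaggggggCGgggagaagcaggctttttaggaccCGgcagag

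The Igfbp5 window holds 10 CG dinucleotides and the Igfbp2 window shown 14, against a median of 6 over the 32851 windows of the table. Among these windows their counts stand at percentiles 63.3 and 71.7. The window of the other Igfbp2 start, not shown, holds 11. RefSeq windows were found for 9 of the 10 genes, 13 windows in all because Igf2 and Igfbp2 have several starts. Igf1r had the most CG dinucleotides, 42, followed by Igfbp3 with 32 and Igf2r with 27, while Igf1 had 5 and Igfbp6 had 7. The Igf2 windows had 22, 10, 6 and 1, the last being the lowest of the 13. Both strands were searched for TTCNNNGAA, the palindrome bound by STAT factors, and for TTCCTAGAA, a BCL6-type sequence that is one form of it. Neither was found in any of the 13 windows, and they occur in 7.02% and 0.347% of all windows. That says only that these letters are not in these 250 bases.

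The ligands gave no difference beyond the spread between pups. Igf1, the ligand induced by growth hormone in liver and made locally in brain, read 6.58, 6.56, 6.39 and 6.46 in mutant replicates 1 to 4, against 6.51, 6.30, 6.42 and 6.65 in control replicates 1 to 4. The highest and the lowest value were both controls. The difference was 0.03 ± 0.08 (SE), with an interval from -0.15 to 0.21 that excludes a change of the size seen for Igfbp5. The 9 measured microglia markers averaged 4.36 to 4.47 in mutants and 4.40 to 4.63 in controls, with a median difference of -0.094. All 9 markers read below the median level of all genes, 5.55, and whether such readings exceed background is unknown. Their part in the Igf1 values was not tested, and the sign of the Igf1 difference turned without mutant replicate 1 (-0.00050) or control replicate 2 (-0.030).

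Igf2, the imprinted ligand that is high before birth, varied more between pups of a genotype than any other of the 10 genes. It read 6.49, 6.12, 6.47 and 6.01 in mutant replicates 1 to 4, against 6.95, 6.11, 6.24 and 6.48 in control replicates 1 to 4. Control replicate 1 stood above all other arrays and the remaining values overlapped. The difference was -0.17 ± 0.17 (SE, 95% interval -0.53 to 0.19), and its residual SD of 0.315 was above that of 99.4% of all genes. Without control replicate 1 the difference was -0.0037.

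Control replicate 1 also had the highest level of 8 of the 13 markers of mural, fibroblast and meningeal cells. Of all genes 24.7% had either their highest or their lowest value in that array. The 13 markers averaged 5.14 there, against 4.85 to 4.90 in the mutants and 4.87 to 4.91 in the other controls. The 8 were Col1a1, Col1a2, Col3a1, Dcn, Lum, Ogn, Slc6a13 and Aldh1a2. Of these Dcn, the fibroblast proteoglycan decorin, read 4.61 there and 2.72 to 3.54 in the other 7 arrays. Dcn, Lum, Ogn and Aldh1a2 averaged below the lower quartile of all genes, 3.96, and whether such readings exceed background is unknown. Other markers of the list were not raised in that array. Foxc1, a meningeal transcription factor, was at its lowest there, 5.07, and Pdgfrb and Rgs5 of mural cells read 6.16 and 7.85, within the 6.03 to 6.44 and 7.82 to 8.12 of the other arrays. With the mean of the 13 markers as a covariate the Igf2 difference was 0.02 (95% interval -0.21 to 0.26), in a fit that rests largely on that same array. The part of these cells in the Igf2 values was not tested.

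None of the receptors differed between genotypes beyond the spread between pups. Igf1r, the kinase receptor for both IGFs, read 8.49, 8.59, 8.38 and 8.39 in mutant replicates 1 to 4, against 8.58, 8.61, 8.42 and 8.15 in control replicates 1 to 4. Mutant values lay inside the range of the controls, and the difference was 0.02 ± 0.10 (SE, 95% interval -0.19 to 0.24). Igf2r, the scavenging receptor for IGF2, read 7.08, 6.98, 6.93 and 6.92 in mutants and 7.11, 7.12, 6.98 and 6.70 in controls, in replicate order. Its difference was -0.00057 ± 0.093 (SE, 95% interval -0.20 to 0.20).

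Insr encodes the insulin receptor, which can pair with IGF1R chains and in one splice form binds IGF2. The probe set used read 8.49, 8.49, 8.38 and 8.26 in mutant replicates 1 to 4, against 8.42, 8.75, 8.37 and 8.26 in control replicates 1 to 4. Control replicate 2 was the highest array, and the difference was -0.05 ± 0.10 (SE, 95% interval -0.26 to 0.17). The probe set that the choice by mean level left out averaged 7.46 in mutants and 7.39 in controls, a difference of 0.07 ± 0.07 (SE). The means over 8 arrays that decided between them were 8.43 and 7.42. The 2 Insr probe sets differed in sign, and neither difference exceeded the spread.

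**Figure D3:**
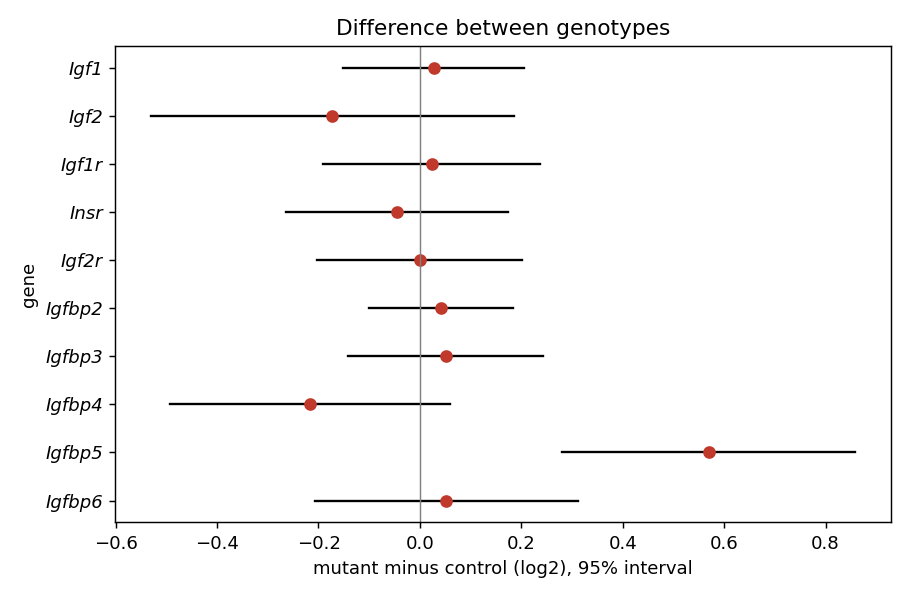
Estimated difference of the 10 genes (y axis) in mutants minus controls (x axis, log2), each point the estimate and each line its 95% interval in limma. The Igfbp5 interval runs from 0.28 to 0.86, and those of the other 9 genes all include 0 and lie between -0.53 and 0.31.

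Among the other binding proteins Igfbp4 had the lowest difference. IGFBP4 is a soluble inhibitor of IGF action that the protease PAPP-A cuts. Igfbp4 read 6.68, 6.22, 6.40 and 6.66 in mutant replicates 1 to 4, against 6.58, 6.58, 6.60 and 7.07 in control replicates 1 to 4. Control replicate 4 stood apart from the other 3 controls, which read 6.58 to 6.60. The difference was -0.22 ± 0.13 (SE, 95% interval -0.49 to 0.06; adjusted p = 1.00 in limma), and -0.095 without control replicate 4. The 2 mutants with high Xist were the 2 highest mutants, and without them the difference was -0.39 (95% interval -0.71 to -0.08; adjusted p = 0.998). With the level of Y-linked genes as a covariate it was likewise -0.39 (-0.68 to -0.10; adjusted p = 0.999 in limma). The part of pup sex in the Igfbp4 values was not tested beyond these fits.

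Igfbp3, in mouse blood the carrier that forms a complex with the acid-labile subunit, read 5.94, 5.72, 6.01 and 5.99 in mutants and 5.72, 5.79, 6.04 and 5.91 in controls, in replicate order. The groups overlapped, with a difference of 0.05 ± 0.09 (SE, 95% interval -0.14 to 0.24). Igfbp6, which prefers IGF2 to IGF1, gave low readings. They were 4.61, 4.67, 4.62 and 4.42 in mutants and 4.74, 4.73, 4.50 and 4.14 in controls, in replicate order. Controls held both the highest and the lowest Igfbp6 value, and the difference was 0.05 ± 0.12 (SE, 95% interval -0.21 to 0.31). The table holds no detection calls, so whether a level this low is above background is unknown. Readings of different probe sets depend on their probes, and levels were not ranked between genes.

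How the 10 genes varied from pup to pup was examined with deviations from the genotype mean. Among the 45 pairs of the 10 genes, 0 passed after adjustment in exact permutations of the arrays within genotype. Of the pairs with the highest correlations, Pearson's r was 0.925 for Igf1r with Igf2r (Spearman's rho 0.952) and 0.943 for Igf1r with Igfbp6 (rho 0.833). The permutation p was 0.0243 and 0.0122 for r and rho of Igf1r with Igf2r. For Igf1r with Igfbp6, p was 0.0139 and 0.0451 in the same permutation test. Igf2r with Igfbp6 gave r of 0.924 and rho of 0.857 (permutation p = 0.0208 and 0.0330). The lowest adjusted p of the permutation test was 0.234 for r and 0.312 for rho, and the smallest p that the permutations allow is 0.00174. That floor is too high for any pair alone to pass after adjustment over 45 pairs. That 0 passed therefore says nothing about a single pair. Igfbp4 with Igfbp6 gave the smallest p, with r of -0.816 and rho of -0.810 (permutation p = 0.00521 and 0.0139, adjusted 0.234 and 0.312).

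Leaving out the 2 arrays farthest from the Igf1r median, control replicates 2 and 4, lowered r to 0.722 for Igf1r with Igf2r and to 0.802 with Igfbp6. For Igfbp4 with Igfbp6 the arrays left out were mutant replicate 1 and control replicate 4, and r was then -0.703. Without control replicate 4 alone r was -0.609 for that pair, 0.801 for Igf1r with Igf2r and 0.855 for Igf1r with Igfbp6. Control replicate 4 was the lowest array for Igf1r, Igf2r, Igfbp5 and Igfbp6 and the highest for Igf1 and Igfbp4. It thus held an extreme value in 6 of the 10 genes, and it did so in 28.1% of all genes. Of the layer II-IV markers Rorb, Cux1, Cux2 and Rasgrf2 were also lowest there, and Neurod2, Neurod6, Slc17a7, Lmo4 and Mef2c were not. Rorb read 9.35 there, against 9.81 to 10.50 in the other arrays. The 10 interneuron markers averaged 7.21 there, against 6.96 to 7.13 in the other controls and 7.06 to 7.21 in the mutants. The part of cell content in the deviations of that array was not tested. By Pearson's r of the deviations 283 other genes, or 1.42% of all, had r above 0.9 with Igf2r. With Igfbp6 they numbered 200, or 1%, and with Igf1r 136, or 0.682%.

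**Figure D4:**
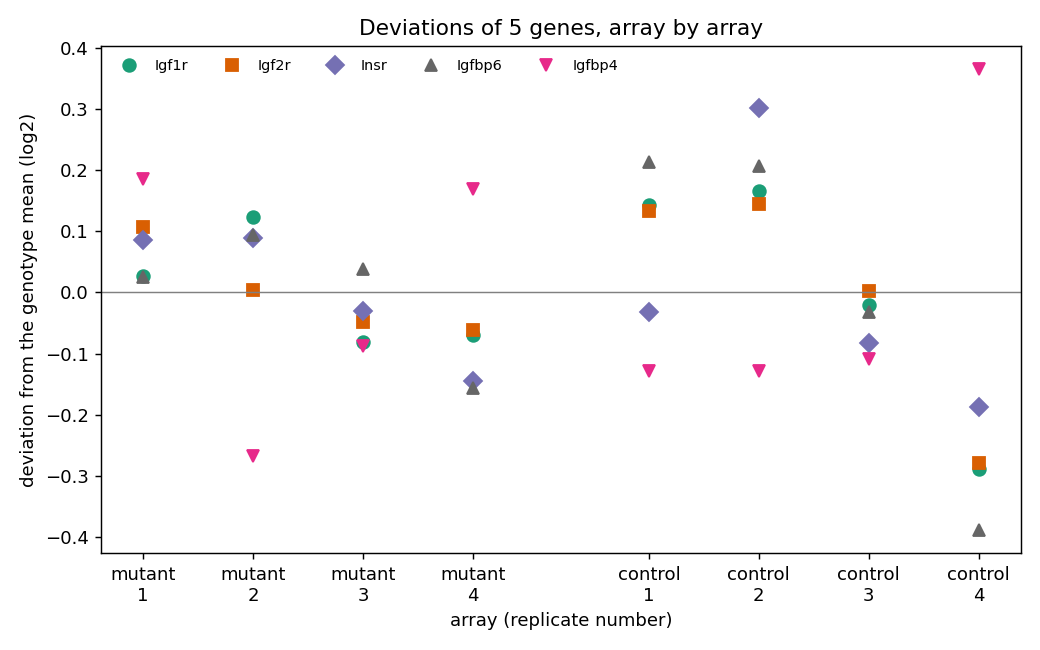
Deviation from the genotype mean (y axis, log2) of Igf1r, Igf2r, Insr, Igfbp6 and Igfbp4 in each array (x axis, 4 mutants on the left and 4 controls on the right). In control replicate 4 the deviations of Igf1r, Igf2r and Igfbp6 are -0.288, -0.280 and -0.389, and that of Igfbp4 is 0.365.

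Nearest genes were sought among those above the median of all genes both in mean level and in residual SD. The genes whose deviations were most like those of Igfbp5 over the 8 arrays were Camta2 (r = 0.956), a transcription activator, Nckipsd (r = 0.945), a regulator of the actin cytoskeleton, and Brinp2 (r = 0.936). For Igf1r they were Ago3 (r = 0.994), a protein of small-RNA silencing, Taf1c (r = 0.976) and Ptprd (r = 0.966), a receptor phosphatase of synapses. For Igf2 the nearest of these candidates was Plpp2 (r = 0.919). The candidates numbered 3485, so the values describe these arrays only. Over all genes, filtered out or not, 45 had r above 0.9 with Igf2 and 59 with Igfbp5.

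The other genes of the pathway were taken from 6 lists, of whose 84 genes 77 were measured. Of these 77, 2 rose and 0 fell over all genes in limma, 41 differences were positive and 36 negative, and the median was 0.0024. Over all genes 0.0502% were called higher and 0.015% lower, and the lists, like the 10 genes, were drawn up with earlier results of these data known. Socs2, which restrains growth hormone signalling, was the only one called of the 8 genes of the growth hormone and Stat5 axis. Foxo1, a transcription factor that Akt keeps out of the nucleus, was the only one called of 27 genes of the relay through PI3K, Akt, mTOR and FoxO. Socs2 read 8.98 to 9.03 in the 4 mutants and 7.46 to 8.07 in the 4 controls, a difference of 1.21 ± 0.11 (SE; adjusted p = 0.00096 in limma), and it was called in 20 of 21 alternatives, all but the fit without both mutants with high Xist (adjusted p = 0.0539). Foxo1 read 7.87 to 8.20 in the mutants and 7.08 to 7.56 in the controls, a difference of 0.73 ± 0.11 (SE; adjusted p = 0.0318 in limma). The Foxo1 call held in 11 of 21 alternatives, with differences from 0.65 to 0.81. It was lost without any 1 mutant or without control replicate 2, 3 or 4. The call was also lost with the Y-linked covariate (adjusted p = 0.304 in limma) and with the meningeal, mural and fibroblast marker covariate (0.0591). The highest adjusted p in limma was 0.313, without both mutants with high Xist.

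Around these genes the growth hormone receptor and its relay stayed within the spread. Of that list 2 differences were positive and 6 negative, with a median of -0.022. Ghr, the growth hormone receptor, gave -0.06 ± 0.10 (SE), Stat5b -0.03 ± 0.10 and Cish, a Stat5 target, 0.15 ± 0.08. In the PI3K to FoxO list the median was 0.010, with 16 differences positive and 11 negative. Foxo4 gave 0.22 ± 0.08 (SE; adjusted p = 0.932 in limma) and Inppl1, a lipid phosphatase, 0.11 ± 0.07, while Akt1 gave 0.01 ± 0.06, Mtor -0.02 ± 0.07 and Pik3r1 0.06 ± 0.09.

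The adaptors nearest the receptors gave 0 calls among 14 genes, at most 0.092 in size and with 0 at an unadjusted p under 0.05 in limma. Irs1 and Irs2, the substrates that couple the receptors to PI3K, gave 0.05 ± 0.10 and 0.0019 ± 0.078 (SE). Ptpn1, a phosphatase that turns the insulin receptor off, gave 0.09 ± 0.07 and Grb2 gave -0.09 ± 0.07. Of 10 proteases of binding proteins and their inhibitors 0 were called and 0 reached an unadjusted p under 0.05 in limma, with 5 differences positive and 5 negative. Pappa, the protease that cuts IGFBP4 and IGFBP5, gave -0.0022 ± 0.074, Adam12 0.12 ± 0.07 and Mmp2 -0.12 ± 0.09.

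Further family members gave 0 calls among 7 and 0 at an unadjusted p under 0.05 in limma. Igfbp7, a low-affinity relative found in vessel walls, read 7.85 to 8.01 in the mutants and 7.54 to 7.83 in the controls, groups that did not overlap (0.16 ± 0.08, SE; adjusted p = 1.00 in limma). Igfbp1, next to Igfbp3 on chromosome 11, gave -0.08 ± 0.08 and Ins2 gave -0.14 ± 0.09. Among 11 imprinted growth genes and mRNA-binding proteins of Igf2 0 were called and 0 reached an unadjusted p under 0.05. Meg3, the noncoding RNA of the Dlk1 locus, gave 0.40 ± 0.20 and Plagl1, a zinc-finger factor of imprinted growth genes, gave 0.30 ± 0.19 (SE). The spread of both was larger in controls, with an SD of 0.48 for Meg3 and 0.51 for Plagl1, than in mutants, with 0.26 and 0.10.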

How the data were processed

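The table the authors deposited gives log2 expression of 35556 probe sets on 8 arrays, processed with BRB-ArrayTools per the labels. Background correction, normalization and software version: not given in the sources used here. The log2 scale was read from the range of the values, 0.74 to 13.63. Probe sets were named from the platform's annotation, with symbols updated through the Entrez identifier. Only the 21789 that name 1 gene were used, the highest mean standing for a gene with several. Genotypes were compared in R 4.3.3 with limma 3.58.1 (lmFit, eBayes, genotype as the only term, 8 arrays, two-sided), adjusted by Benjamini-Hochberg over 19938 genes with a threshold of 0.05, after tests on simulated data. The number of arrays limits the precision. Differences are mutant minus control, with moderated SE.

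The 10 genes and the lists were chosen with earlier results of these data known. Named genes were all 10, Bcl6, Neurod6, called genes of each list and otherwise up to 3 of smallest p, plus the 3 nearest genes by correlation of deviations; Stat5b, Akt1, Mtor, Pik3r1, Irs1, Irs2, Pappa, Igfbp1, Ghr and marker genes were named for their role. Replicate numbers were not treated as pairs, since the labels do not say that they pair pups. Over all genes, deviations of same-numbered arrays correlated at -0.012, 0.029, 0.040 and 0.159. A replicate block nevertheless lowered the SE of the 10 genes except Igf1 and Igfbp2, for Igfbp5 from 0.133 to 0.097.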

Additional observations from a re-analysis of the deposited data

Results flagged for a closer look

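In the 20 groups of 4 arrays examined, 1 stood out by the distance of its extreme array. For Igfbp4 in controls, the gap between control replicate 4, at 7.07, and the nearest of the other controls, at 6.60, was 0.961 of the group's range, above Dixon's critical value at the 95% level for 4 samples. Chance alone marks about 1 in 20 such groups. Without that array the Igfbp4 difference was -0.095, against -0.22 with it.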

How the results depend on the processing

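None of the 10 genes passed the threshold in any of the 21 alternatives or with every probe set as its own row. Over their 210 single values 189 kept their sign and 21 did not, and 0 became called. The reversed values were small. When 1 array was left out, differences ranged from -0.030 to 0.086 for Igf1, from -0.073 to 0.078 for Igf1r, from -0.094 to 0.048 for Igf2r, from -0.108 to 0.056 for Insr and from -0.077 to 0.124 for Igfbp6, each range crossing 0. Igf2 gave 0.024 with the meningeal, mural and fibroblast markers as covariate. Igf2r gave 0.00032 after quantile normalization, 0.013 after median centring, 0.0015 after cyclic loess and 0.033 with the marker covariate. Insr gave 0.014 as the mean of its probe sets and 0.073 for its other probe set. Igfbp3 gave -0.0041 with the Y-linked covariate and -7.35e-05 without both arrays with high Xist. Over all genes the calls in limma, 10 higher and 3 lower, were 3 to 9 higher and 0 to 4 lower when 1 array was left out, 3 and 1 with the Y-linked covariate, 3 and 0 with the marker covariate and 2 and 0 without both arrays with high Xist. Calls lower numbered 1 after cyclic loess and 1 among genes above the median level. With the replicate block 4 were higher and 1 lower, and Igfbp5 had an adjusted p of 0.242, against 0.491 without it, so that the block changed no call among the 10 genes, while the Igfbp4 interval, -0.42 to -0.013, then excluded 0. Alternatives for Socs2 and Foxo1 were added after seeing the data. In the fits that called 0 lower, between 561 and 722 genes had a negative difference with an unadjusted p under 0.05 in limma. The cause of these changes was not tested; fits with fewer arrays or more terms also have fewer degrees of freedom. Signal over background is not known for any probe set.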
